A study of Mus musculus with 6 samples.

Results

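*Ccl2*, *Ccl7*, *Ccl11*, *Cxcl1*, *Cxcl2*, *Cxcl3*, and *Cxcl5* encode chemokines that call monocytes, eosinophils, or neutrophils into tissue, and this is an account of which cells of mouse muscle carried their mRNA before and after injury, with and without thyroid hormone. The genes were chosen by name, are 7 of 12436 genes listed for each library, and were all detected. Muscle cells came from the tibialis anterior muscle (TAM) of male mice aged 3 to 5 months that all carried the tm1(Fucci2aR)Jkn allele of Gt(ROSA)26Sor on a B6;129 background. That insertion is built to report the cell cycle with fluorescent proteins, and the study crossed it to mice with Cre recombinase under the *Pax7* promoter. The mice used for sequencing were negative for Cre. Hypothyroid mice ate low iodine chow with 0.15% propylthiouracil (PTU), a drug that blocks thyroid hormone synthesis. Control mice ate matched chow with iodine and without PTU, so the diets differed in both. The diets were given for 3 weeks before injury and were kept up until the muscle was taken. TAM was taken without injury (0 dpi) or at 5 or 14 days after injury (dpi) with cardiotoxin at 50 μg/ml, a snake venom toxin that destroys muscle fibers. Each of the 6 combinations of diet and day was 1 library in which cells of 3 mice were pooled. No difference between diets or days therefore has a replicate check, no p-value is given, and a shift in 1 of the 3 mice cannot be told apart from a shift in all of them.

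The 6 libraries held between 528 and 3294 cells and between 2283740 and 23496509 UMIs (unique molecular identifiers, each standing for a captured mRNA molecule), and the median cell of a library held between 3634 and 8055 UMIs. Cells were clustered without the chemokines and named from marker genes. The largest class, 4721 of 11207 cells (42.1%), was made of 4 clusters that each raised 9 or 10 of 10 markers of fibro-adipogenic progenitors (FAPs), *Pdgfra*, *Dcn*, and *Col3a1* among them, and is called FAP-like. A cluster of 809 immune cells led by *Il4i1*, *Ifitm1*, and *Ccr7* stayed unnamed, and no cluster of granulocytes was found. Of the cells used, 1152 of the 1650 labelled hypothyroid at 14 dpi also stand, value for value, in the table of the uninjured control library, and 528 of the 2428 labelled control at 5 dpi also stand in that of the uninjured hypothyroid library. Whether each set of cells belongs to its label could not be checked. The counts of chemokines past 2-fold at 5 and 14 dpi, and the diet ratios of some genes, are therefore given below with and without these cells. The 6 sets shared 12 of 11195 barcodes with each other and no identical cell.

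Chemokines are small secreted proteins that hold on to the matrix and steer leukocytes along a gradient. CCL2 and CCL7 bind CCR2 on classical monocytes, CCL11 (eotaxin) binds CCR3 on eosinophils, and CXCL1, CXCL2, CXCL3, and CXCL5 bind CXCR2 on neutrophils. FAPs are the mesenchymal cells between muscle fibers: they lay down matrix and feed muscle stem cells after injury, and fibroblasts like them release these chemokines when IL-1, TNF, or damaged tissue activates NF-κB.

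The family of each gene can be read from its coding sequence, and the stretch around the first cysteines is shown for that reason. The following lines give it from GENCODE M39 on GRCm39, plus strand, with the cysteine codons in capitals. They lie side by side in the CC genes and are parted by 1 codon in the CXC genes.
Ccl2, chr11:81927314-81927355, exon 2: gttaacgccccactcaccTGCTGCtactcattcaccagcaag
Ccl7, chr11:81937346-81937387, exon 2: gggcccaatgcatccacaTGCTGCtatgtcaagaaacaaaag
Ccl11, chr11:81948868-81952545, spliced across exons 1 and 2: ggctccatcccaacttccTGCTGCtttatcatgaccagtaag
Cxcl1, chr5:91039337-91039381, exon 2: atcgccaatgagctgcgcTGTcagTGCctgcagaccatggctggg
Cxcl2, chr5:91051983-91052027, exon 2: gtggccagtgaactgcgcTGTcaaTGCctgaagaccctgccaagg
Cxcl3, chr5:90934209-90934253, exon 2: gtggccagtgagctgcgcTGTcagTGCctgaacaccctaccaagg
Cxcl5, chr5:90907568-90907612, exon 2: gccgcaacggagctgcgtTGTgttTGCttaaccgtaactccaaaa

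In all 4 CXC genes the codons just before the first cysteine read Glu-Leu-Arg, the ELR motif of the chemokines that act on neutrophils. The CC genes stand next to each other on chromosome 11 (mm39), *Ccl2* at 81926397 to 81928279, *Ccl7* at 81936538 to 81938351, and *Ccl11* at 81948649 to 81953781. The CXC genes share a stretch of chromosome 5, *Cxcl5* at 90907219 to 90909483, *Cxcl3* at 90933962 to 90937459, *Cxcl1* at 91039100 to 91040974, and *Cxcl2* at 91051730 to 91053797. The coding sequences of *Cxcl2* and *Cxcl3* were identical at 89.7% of aligned bases. Their transcripts, untranslated parts included, shared 61 words of 50 bases, so reads could have been split between them and their separate levels are uncertain. Where in the transcripts these words lie was not examined. No other pair of the same family shared such a word, and identity was 75.7% for *Cxcl1* and *Cxcl2*, 65.6% for *Ccl7* and *Ccl11*, and 42.8% for *Ccl2* and *Ccl7*.

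NF-κB is known to drive genes of this kind, and of the 7 promoters the RefSeq table (GRCm38.p6) held those of *Cxcl1*, *Cxcl2*, and *Cxcl3*. They are shown because these genes share an exact NF-κB sequence within the first 97 bases before the start site. The lines give the 120 bases before the start, plus strand, with that sequence in capitals.
Cxcl1, chr5:90891125-90891244: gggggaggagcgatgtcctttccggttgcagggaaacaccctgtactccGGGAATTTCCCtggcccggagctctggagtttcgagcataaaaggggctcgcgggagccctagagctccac
Cxcl2, chr5:90903779-90903898: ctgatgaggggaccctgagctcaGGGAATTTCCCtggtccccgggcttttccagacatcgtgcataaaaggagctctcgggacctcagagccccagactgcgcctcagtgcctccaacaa
Cxcl3, chr5:90785981-90786100: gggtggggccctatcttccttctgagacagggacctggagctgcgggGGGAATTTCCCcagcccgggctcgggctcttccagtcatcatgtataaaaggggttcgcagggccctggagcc

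GGGAATTTCCC, searched on both strands and found on the plus strand, began 71 bases before the start of *Cxcl1*, 97 before *Cxcl2*, and 73 before *Cxcl3*. Among 32851 promoters of the table, 14 held these letters in the 250 bases before the start (0.0426%). The letters were read from the *Cxcl1* promoter and these genes are among the 14, so that rarity is not a test. The looser NF-κB consensus from which they were found matched 2382 promoters (7.25%). A match is a string of letters and says nothing of binding in these cells.

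FAP-like cells carried nearly all of the mRNA of 5 of the 7 chemokines in every library. Their share of the UMIs of a gene, from the lowest to the highest library, was 89.4% to 97.7% for *Ccl2*, 90.3% to 98.2% for *Ccl7*, 87.2% to 97.8% for *Ccl11*, 87.3% to 96.9% for *Cxcl1*, and 88.6% to 100% for *Cxcl5*. The same cells held 38.9% to 75.4% of all UMIs, so these genes were concentrated in them at each diet and day. *Cxcl2* and *Cxcl3* were sent by FAP-like cells and by others: the FAP-like share of *Cxcl2* was 67.2% (control, 5 dpi) to 95% (control, 0 dpi), and that of *Cxcl3* 37.0% (control, 0 dpi) to 83.8% (hypothyroid, 5 dpi). Over all libraries the shares were 94.5% for *Ccl2*, 94.1% for *Ccl7*, 93.3% for *Ccl11*, 93.6% for *Cxcl1*, 80.1% for *Cxcl2*, 77.9% for *Cxcl3*, and 95.3% for *Cxcl5*. A share of UMIs rises with the number of cells of a class as well as with the mRNA in each cell, and it follows the cells that survived dissociation, not the cells in the tissue.

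**Figure D1:**
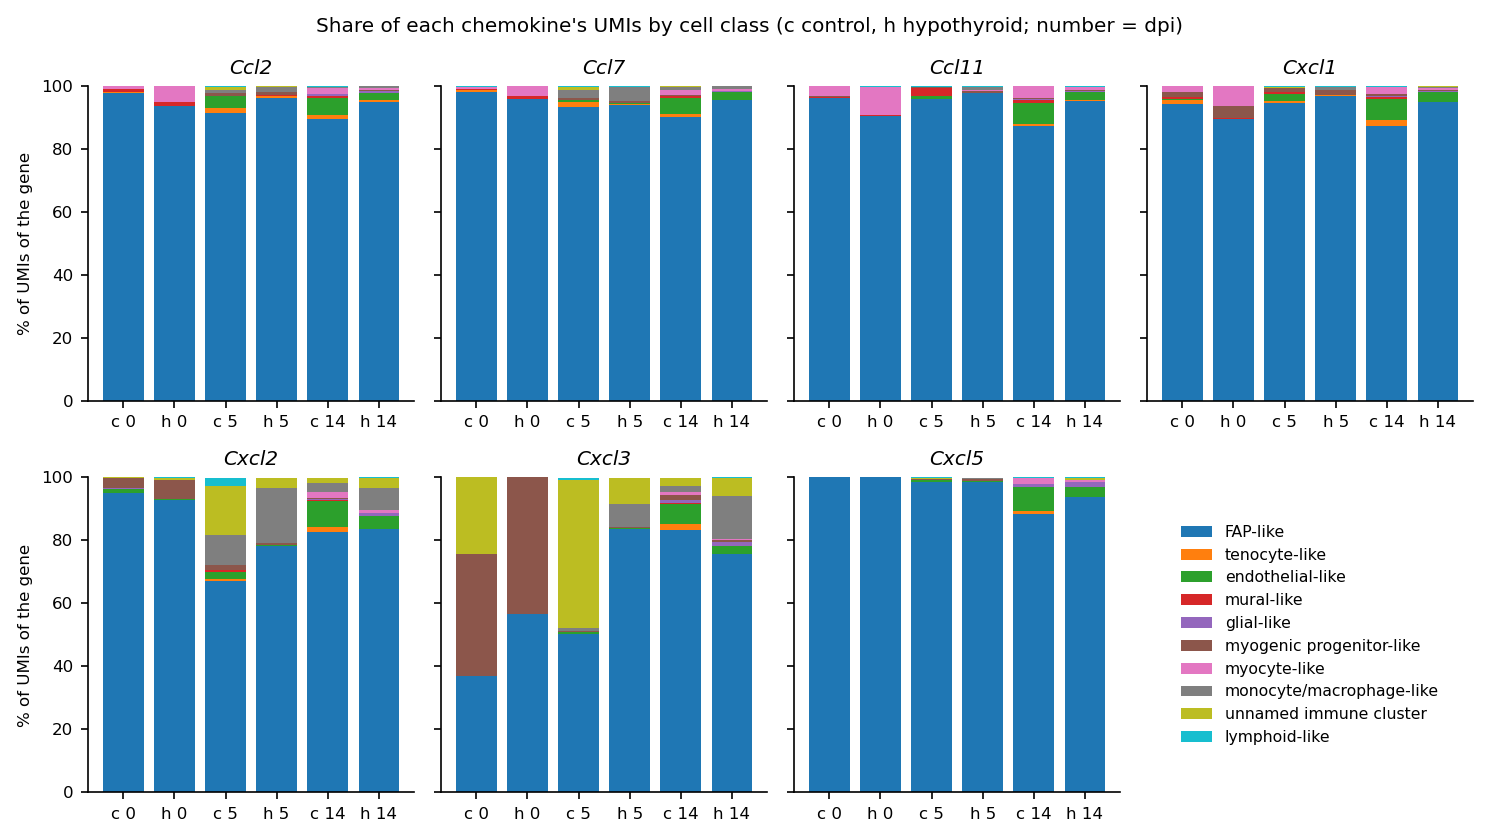
Share of the UMIs of each chemokine (y axis, %) held by each cell class in the 6 libraries (x axis; c control, h hypothyroid, number = dpi). FAP-like cells fill most of every bar of *Ccl2*, *Ccl7*, *Ccl11*, *Cxcl1*, and *Cxcl5*, while *Cxcl2* and *Cxcl3* show sizeable myeloid or myogenic parts, 47.0% from the unnamed immune cluster for *Cxcl3* in control muscle at 5 dpi.

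Within FAP-like cells, levels are given as CPM, the UMIs of a gene after each pool of cells is scaled to the same total, with exact Poisson 95% intervals. These intervals cover counting error only, not the spread between mice. CPM of a 3′ UMI library is not divided by gene length and was compared between libraries and cell classes for each gene, not between genes.

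*Ccl2*, the main ligand for monocytes, stood at 10053 and 6301 CPM in control and hypothyroid FAP-like cells at 0 dpi, at 3993 and 15068 CPM at 5 dpi, and at 9710.5 and 17444 CPM at 14 dpi. Control muscle was thus lowest at 5 dpi, at 0.397 times its uninjured level [0.391 to 0.403], whereas hypothyroid muscle climbed to 2.39 times its own [2.34 to 2.44]. The hypothyroid over control ratio ran from 0.627 [0.613 to 0.641] through 3.77 [3.72 to 3.82] to 1.80 [1.78 to 1.81]. With the mean of log2 values in place of summed UMIs it was 0.328, 8.80, and 5.18, and with all columns 0.382, 1.68, and 1.39. Its size thus depends on these choices far beyond the counting intervals, while its direction did not change. At 0 dpi the value with all columns cannot check the direction. The uninjured tables then also hold cells labelled hypothyroid at 14 dpi and control at 5 dpi. Cells with at least 1 *Ccl2* UMI made up 47.8% and 37.0% of control and hypothyroid FAP-like cells at 0 dpi, 66.4% and 86.3% at 5 dpi, and 69.5% and 84.1% at 14 dpi. After thinning each cell to 1000 UMIs the same shares were 39.2%, 25.3%, 47.1%, 68.8%, 52.4%, and 68.8%, so the order of the diets did not change with depth. Lymphoid-like cells, which should lack *Ccl2*, gave 5.3%, 0%, 2.7%, 19.4%, 15.3%, and 20.3% after thinning, at a median of 2554 UMIs per cell against 7186 in FAP-like cells.

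*Ccl7*, which lies next to *Ccl2* and binds the same receptor, followed it. Its level was 3365 and 3112.5 CPM in control and hypothyroid muscle at 0 dpi, 1672 and 4350.2 CPM at 5 dpi, and 3874 and 7637 CPM at 14 dpi. The diet ratios were 0.925 [0.895 to 0.956], 2.60 [2.55 to 2.66], and 1.97 [1.95 to 2.0]. Both genes were often in the same cells: among thinned FAP-like cells with a *Ccl2* UMI, 68.9% to 85.7% also had *Ccl7*, against 12.8% to 35.4% of those without, over the 6 libraries.

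*Ccl11*, the eosinophil ligand, behaved differently. It was highest before injury, with 778 and 1299.6 CPM in control and hypothyroid FAP-like cells, fell to 179 and 136 CPM at 5 dpi, and stood at 369 and 395 CPM at 14 dpi. The drop at 5 dpi was to 0.230 [0.214 to 0.246] of the uninjured level in control and 0.104 [0.0978 to 0.111] in hypothyroid muscle. Diet ratios were 1.67 [1.58 to 1.77] at 0 dpi, 0.759 [0.704 to 0.820] at 5 dpi, and 1.07 [1.02 to 1.13] at 14 dpi. The ratio of 5 dpi lies beside the median of all genes in that comparison, 0.799, and it turned to 1.41 after thinning and to 1.15 with the mean of log2 values. That of 14 dpi turned to 0.822 with all columns and was 1.30 without the cells that also stand in another table. From cell to cell *Ccl11* had no fixed relation to *Ccl2*: of thinned control cells with *Ccl2* 43.6% had it at 0 dpi, 11.9% at 5 dpi, and 19.8% at 14 dpi, against 46.5%, 7.3%, and 29.5% of those without. In hypothyroid cells the shares were 44.6%, 12.5%, and 21.4% with *Ccl2*, and 59.4%, 14.8%, and 23.6% without.

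**Figure D2:**
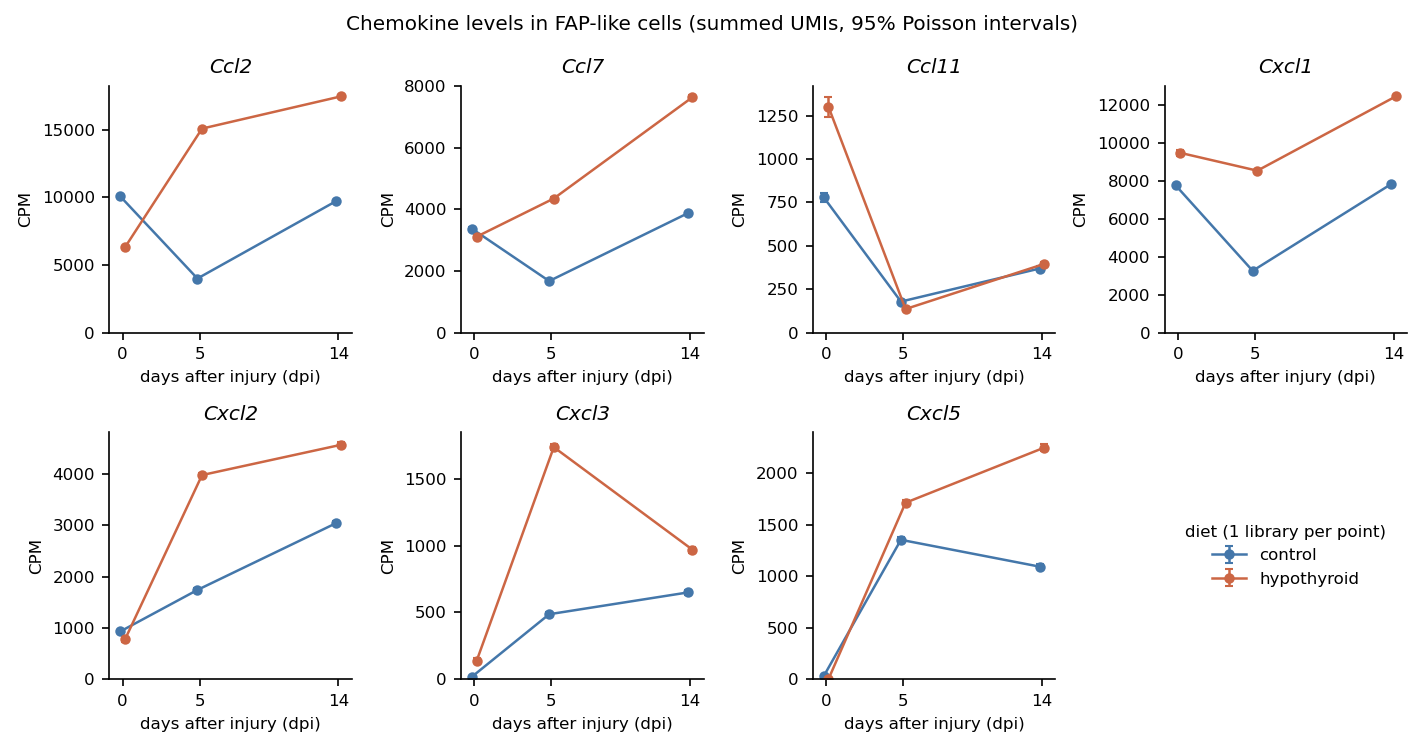
Level of each chemokine in FAP-like cells (y axis, CPM from summed UMIs, linear axis from 0) against days after injury (x axis, dpi) in control and hypothyroid muscle, 1 library per point with its 95% Poisson interval. *Ccl2*, *Ccl7*, and *Cxcl1* dip at 5 dpi in control muscle, *Ccl11* is highest at 0 dpi in both diets, and *Cxcl3* and *Cxcl5* lie near 0 before injury.

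Among the ligands of CXCR2, *Cxcl1* was high before injury and the other 3 were not. *Cxcl1* was at 7774 and 9489 CPM in control and hypothyroid FAP-like cells at 0 dpi, at 3260.45 and 8546 CPM at 5 dpi, and at 7846 and 12473 CPM at 14 dpi. The control intervals of 0 dpi [7692 to 7856] and 14 dpi [7788 to 7904] overlapped. Its diet ratios were 1.22 [1.2 to 1.24], 2.62 [2.58 to 2.66], and 1.59 [1.57 to 1.61], and it was detected in 64.8% to 87.8% of FAP-like cells.

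*Cxcl2* rose with time in both diets. It went from 929.9 CPM through 1739 to 3042 CPM in control muscle and from 773 through 3979.7 to 4569 CPM in hypothyroid muscle. The diet ratios were 0.831 [0.778 to 0.887], 2.29 [2.24 to 2.34], and 1.5 [1.48 to 1.53]. A small part of the cells held most of it, since the 10% of FAP-like cells with the most carried 62.3% to 99.1% of its UMIs over the 6 libraries, against 43.7% to 89.5% for *Ccl2*.

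*Cxcl3* and *Cxcl5* were almost absent before injury. *Cxcl3* came from 4 control and 2 hypothyroid FAP-like cells at 0 dpi, of 758 and 300, and *Cxcl5* from 8 and 1. *Cxcl3* was at 18.8 and 139 CPM at 0 dpi, 486 and 1738 CPM at 5 dpi, and 649 and 969.6 CPM at 14 dpi in control and hypothyroid muscle. *Cxcl5* was at 31.1 and 0.664 CPM, then at 1352 and 1713 CPM, and then at 1092 and 2248 CPM. At 0 dpi the diet ratios of 7.39 for *Cxcl3* and 0.0214 [0.000537 to 0.121] for *Cxcl5* rest on those few cells, with 69.0% and 75.1% of the *Cxcl3* UMIs in 1 control and 1 hypothyroid cell and 50.4% of the control *Cxcl5* UMIs in 1 cell. At 5 dpi the ratios were 3.58 [3.44 to 3.72] for *Cxcl3* and 1.27 [1.23 to 1.30] for *Cxcl5*, and at 14 dpi 1.49 [1.44 to 1.54] and 2.06 [2.01 to 2.11]. From 5 to 14 dpi *Cxcl3* was 1.34 times as high in control and 0.558 times in hypothyroid muscle, and *Cxcl5* 0.807 and 1.31 times, so for both genes the diets moved in opposite directions.

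With a change of at least 2-fold and at least 20 UMIs in the sum of both pools as the mark, 5 of 7 chemokines were higher in hypothyroid FAP-like cells at 5 dpi and none was lower, against 3.73% of all genes tested that were 2-fold higher and 9.51% that were 2-fold lower. The 5 were *Ccl2*, *Ccl7*, *Cxcl1*, *Cxcl2*, and *Cxcl3*. All genes together were shifted down in that comparison, with a median log2 ratio of -0.32 (0.799), while the median of the 7 was 2.60. At 14 dpi 1 gene passed, *Cxcl5*, against 1.84% of genes higher and 5.93% lower, and the intervals of all 7 ratios lay above 1 with a median of 1.59 beside 0.940 for all genes. At 0 dpi *Cxcl3* passed upward and *Cxcl5* downward (3.98% and 4.12% of all genes), with a median of 0.925 beside a median log2 ratio of 0.00 for all genes. With all columns of each table, the later ones of unknown condition included, the count at 5 dpi was 1 and not 5, and with equal weights of the FAP-like subclusters described below it was 3. Without the cells that also stand in another table the count was 5 at 5 dpi, with 3.87 for *Ccl2*, and 2 at 14 dpi. At 14 dpi *Ccl7* was then at 2.07, *Cxcl5* at 2.17, *Ccl2* at 1.97, *Cxcl3* at 1.82, and *Ccl11* at 1.30.

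Set against time, the diets parted at the first step, in comparisons that share libraries with each other and with those of diet. From 0 to 5 dpi 4 of the 7 were 2-fold lower in control FAP-like cells, *Ccl2*, *Ccl7* (0.497), *Ccl11*, and *Cxcl1* (0.419), and *Cxcl3* and *Cxcl5* were higher, against 12.2% and 21.1% of all genes. In hypothyroid FAP-like cells 4 were higher, *Ccl2*, *Cxcl2* (5.15), *Cxcl3* (12.5), and *Cxcl5*, and *Ccl11* was lower, against 18.8% and 21.2%. *Cxcl5* had 1 UMI in the hypothyroid pool of 0 dpi, so its ratio of 2579 has an interval from 463 to 101864. From 5 to 14 dpi 4 were higher in control cells, *Ccl2* (2.43), *Ccl7* (2.32), *Ccl11* (2.07), and *Cxcl1* (2.41), against 9.24% of all genes and 17.7% that were lower, and 1 in hypothyroid cells, *Ccl11* (2.92), against 11.9% and 16.7%. At 14 dpi beside 0 dpi, control cells had 3 genes higher, *Cxcl2* (3.27), *Cxcl3* (34.6), and *Cxcl5* (35.1), and *Ccl11* lower (0.474), against 7.13% and 5.27% of all genes. Hypothyroid cells had 5 higher, with *Ccl2* (2.77) and *Ccl7* (2.45) added to these 3, and *Ccl11* lower (0.304), against 11% and 16.7%. Thus *Ccl2* and *Ccl7* were near the uninjured level at 14 dpi in control muscle, at 0.966 and 1.15 times, and above it in hypothyroid muscle.

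**Figure D3:**
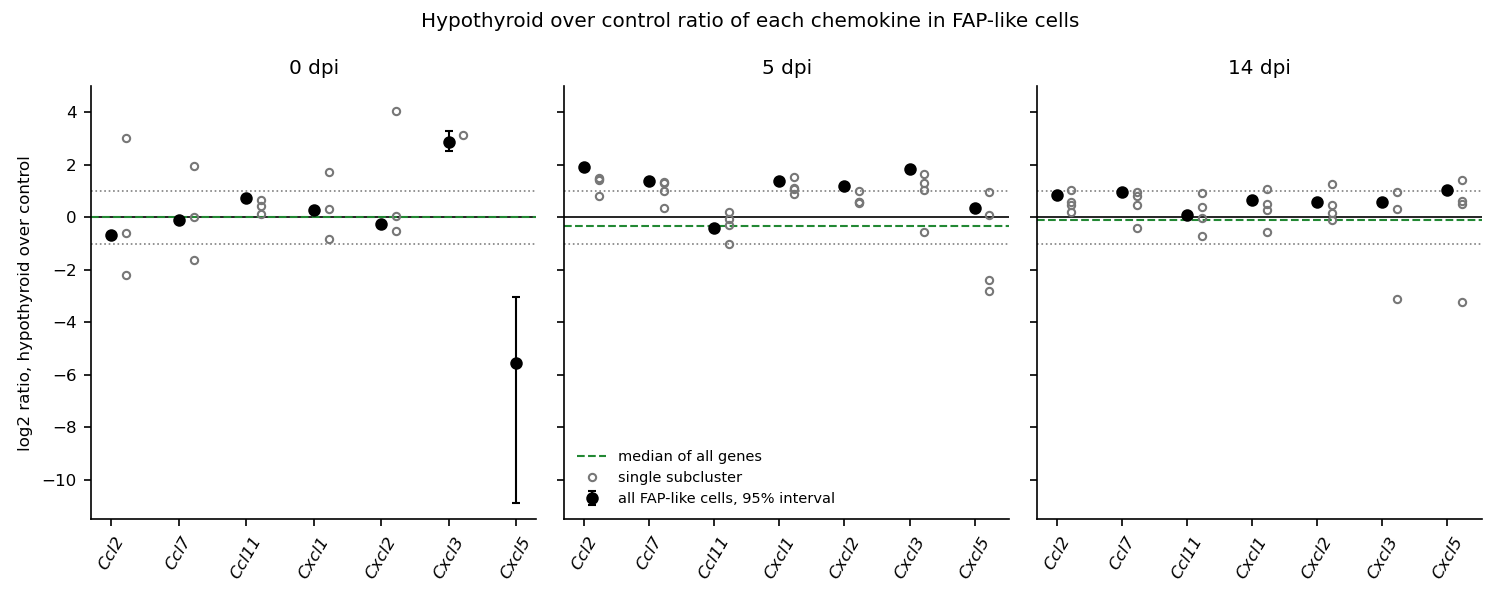
log2 ratio of hypothyroid over control level of each chemokine in FAP-like cells at 0, 5, and 14 dpi (black points, all FAP-like cells with 95% counting intervals; open grey points, single FAP-like subclusters with at least 20 cells in both libraries and at least 20 UMIs together; dotted lines, 2-fold; dashed line, median of all genes). At 5 dpi 5 black points lie above the upper dotted line, and at 14 dpi all 7 lie above 0.

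FAP-like cells were clustered again, also without the chemokines, into 10 subclusters, and the chemokines were uneven among them. Subcluster 3 raised 5 of 8 markers of *Pi16* progenitors (*Cd55*, *Dpp4*, *Pcolce2*, *Sema3c*, and *Ugp2*), but *Pi16* itself was not among them. Before injury it held 95.1% of control and 84.9% of hypothyroid *Ccl2* UMIs with 51.5% and 39.0% of the FAP-like cells. Subcluster 6, with *Smoc2*, *Mme*, and *Col15a1* of interstitial FAPs, had 1245 and 271 CPM of *Ccl2* beside 14691 and 9677 CPM in subcluster 3. For *Ccl11* the order was turned round, with 1561 and 2105 CPM in subcluster 6 and 563 and 894 CPM in subcluster 3. Subcluster 3 also held 92.3% and 79.0% of the *Cxcl1* UMIs.

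At 5 dpi the main sender was subcluster 5, led by *Inhba* and *Rgs16* and raising 7 of 8 injury matrix markers such as *Postn* and *Tnc*. Subclusters 4 and 8 raised the same 7 markers, so these markers did not set the main sender apart. Subcluster 4, led by genes of the cell cycle (*Mki67*, *Top2a*), was 55.7% of control and 38.7% of hypothyroid FAP-like cells and held 15.1% and 7.0% of *Ccl2* UMIs, less than its share of cells. Subcluster 5 held 57.3% of control and 81.0% of hypothyroid *Ccl2* UMIs, 68.5% and 83.2% of *Cxcl2*, and 67.9% and 87.6% of *Cxcl3*. It made up 19.3% of control and 43.8% of hypothyroid FAP-like cells (81 and 384 cells), and *Cxcl3* itself was among its 10 leading genes. Part of the diet ratio of all FAP-like cells thus went with the mix of subclusters and part was found within them. Within subclusters 5, 4, 8, and 1 the *Ccl2* ratio at 5 dpi was 2.86, 2.71, 2.76, and 1.75, and that of *Cxcl1* 1.85, 2.13, 2.15, and 2.92. With the 4 subclusters given the same weights in both libraries, *Ccl2* stood at 2.76, *Ccl7* at 2.22, *Cxcl1* at 1.97, *Cxcl2* at 1.53, *Cxcl3* at 2.36, and *Cxcl5* at 0.881. *Cxcl5* differed most among subclusters, with 1.08 in subcluster 5 but 0.190 in subcluster 4 (858 CPM in control cells, 163 CPM in hypothyroid ones), which held 34.0% of the control *Cxcl5* UMIs.

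**Figure D4:**
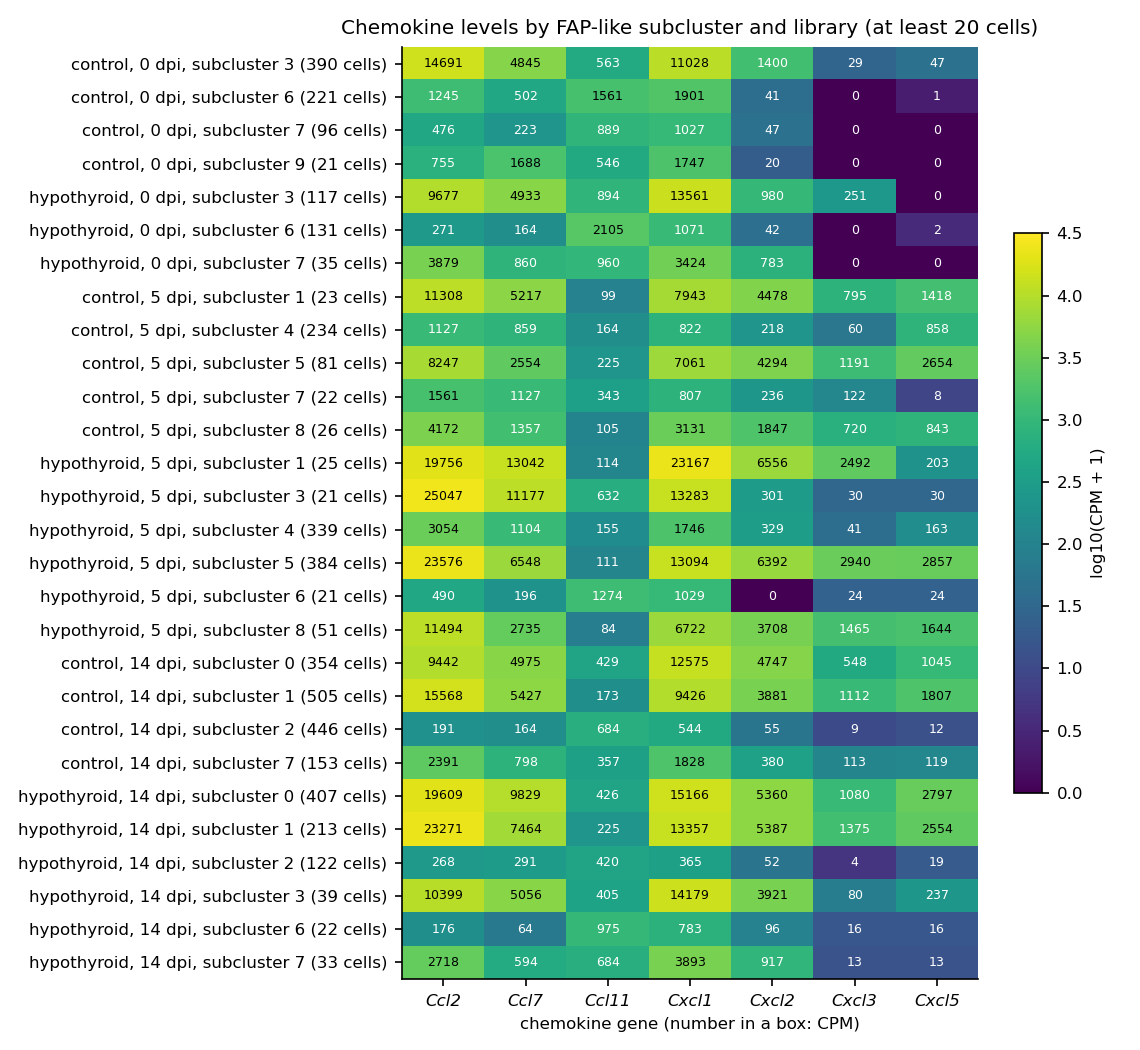
Level of each chemokine (columns) in each FAP-like subcluster and library with at least 20 cells (rows); the color is log10(CPM + 1) and the number in a box is CPM. At 5 dpi subcluster 5 had 8247 CPM of *Ccl2* in control muscle and 23576 CPM in hypothyroid muscle, and at 14 dpi subcluster 2 was low in *Ccl2* in both diets.

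By 14 dpi the senders had changed again. Subcluster 1, which raised all 8 *Pi16* progenitor markers, held 70.6% of control *Ccl2* UMIs and 35.4% of hypothyroid ones, and subcluster 0, led by *Igfbp3* and *Dlk1*, 26.0% and 60.7%. The *Smoc2* cells of that day, subcluster 2, were 29.6% of control and 14.2% of hypothyroid FAP-like cells and had 191 and 268 CPM of *Ccl2* but 684 and 420 CPM of *Ccl11*. Diet ratios of *Ccl2* were 2.08 in subcluster 0, 1.49 in subcluster 1, 1.40 in subcluster 2, and 1.14 in subcluster 7. Subcluster 7, which raised 7 of 8 *Pi16* progenitor markers, had 2391 and 2718 CPM, so the *Pi16* markers did not by themselves mark the senders, and 53.2% of the hypothyroid value was in 1 of 33 cells. At 0 dpi it had 476 and 3879 CPM, with 88.0% of the latter in 1 of 35 cells.

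Outside the FAP-like class, *Cxcl2* and *Cxcl3* had myeloid senders. Monocyte/macrophage-like cells were found after injury only in the main clustering, whose levels are given here. With 30 principal components 3 control and 5 hypothyroid cells at 0 dpi also took this name, and control cells at 5 dpi numbered 258 instead of 95. Their *Cxcl2* in the main clustering was at 2215 and 2662 CPM in control and hypothyroid muscle at 5 dpi and at 3932 and 2731 CPM at 14 dpi. These values were above FAP-like cells in control muscle (1739 and 3042 CPM) and below them in hypothyroid muscle (3979.7 and 4569 CPM). *Cxcl3* was at 73.4 and 457 CPM in monocyte/macrophage-like cells at 5 dpi and at 574 and 1249 CPM at 14 dpi. Their *Ccl2* was lower than that of FAP-like cells in each library, with 487, 727, 1545, and 738 CPM, and their *Cxcl1* at 5 dpi, 42.8 and 183 CPM, stood beside 12.8 and 188 CPM in lymphoid-like cells, with overlapping intervals in hypothyroid muscle only. At 14 dpi *Ccl7* in these cells went against FAP-like cells, since 66 control cells had 1968 CPM and 127 hypothyroid cells 550.0 CPM, 0.279 times as much [0.248 to 0.316]. The highest *Cxcl2* was in a subcluster led by *Hspa1b*, *Il10*, and *Tnf*, with 6085 CPM at 5 dpi in 25 control cells and 8334 in 85 hypothyroid ones, and 41.9% of the former was in 1 cell.

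The unnamed immune cluster sent *Cxcl3* in control muscle at 5 dpi, where its 517 cells held 47.0% of the gene's UMIs, spread over 135 cells. In hypothyroid muscle of the same day 195 cells held 8.36%. The level was nonetheless higher in the hypothyroid cells of the cluster, at 1888 CPM against 1029.6 CPM, while FAP-like cells held 23057 *Cxcl3* UMIs in hypothyroid and 2916 in control muscle. The neutrophil genes *S100a8* and *S100a9* were at 492 and 729 CPM in the cluster in control muscle at 5 dpi and at 1.64 and 0.821 CPM in hypothyroid muscle, and their part in the *Cxcl3* level was not tested.

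Myogenic progenitor-like cells carried CXC chemokines before injury. *Cxcl1* was at 3522 and 4117 CPM in the 39 control and 27 hypothyroid cells at 0 dpi, dropped to 191 and 595 CPM at 5 dpi, and was 1024 and 430.1 CPM at 14 dpi. These cells held 38.8% and 43.2% of the few *Cxcl3* UMIs at 0 dpi, 76.1% and 99.4% of them in 1 cell each. Their *Ccl2*, 19.0 and 127 CPM at 0 dpi, was far below that of FAP-like cells.

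Endothelial-like cells had 42.7 and 0 CPM of *Ccl2* at 0 dpi, 1066 and 1645 CPM at 5 dpi, and 1365 and 1702 CPM at 14 dpi in control and hypothyroid muscle. In the hypothyroid library at 0 dpi no *Ccl2* UMI was seen in 30 cells, and at 5 dpi 37.7% of the UMIs were in 1 of 37 cells. A vascular subcluster of 86 cells that raised all 10 FAP markers had 5766 and 6492 CPM at 14 dpi, whereas the subcluster of larger vessels, with *Vwf* and *Selp*, had 72.8 to 481 CPM in the 3 libraries where it held at least 20 cells. Glial-like, tenocyte-like, mural-like, and myocyte-like pools reached 995 to 6316 CPM of *Ccl2* in some libraries, but 1 cell held 98.4% of the UMIs in control tenocyte-like cells at 0 dpi and 66.9% in hypothyroid glial-like cells at 14 dpi. Doublets were not removed, and their part in these values was not tested.

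**Figure D5:**
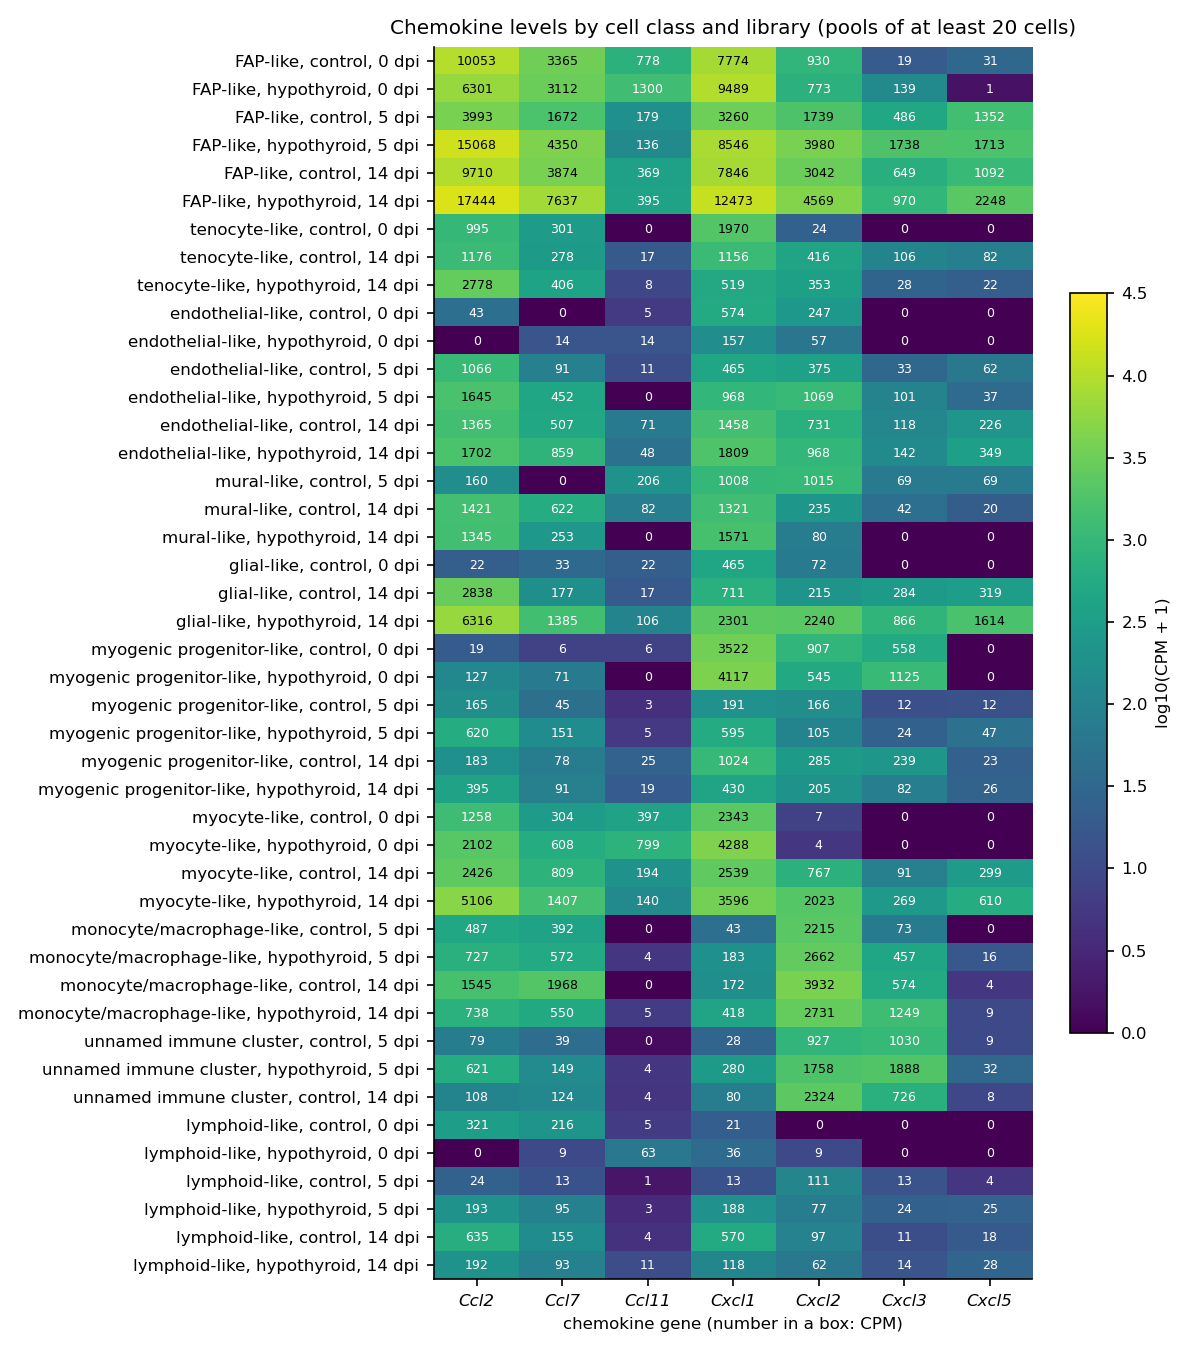
Level of each chemokine (columns) in each cell class and library with at least 20 cells (rows); the color is log10(CPM + 1) and the number in a box is CPM. *Ccl2* and *Ccl7* were highest in FAP-like rows of the same library at every diet and day, while *Cxcl2* was higher in monocyte/macrophage-like than in FAP-like rows in control muscle, 3932 against 3042 CPM at 14 dpi, and lower in hypothyroid muscle, 2731 against 4569 CPM.

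Lymphoid-like cells, which should lack these genes, also held some of their UMIs. The part of free RNA or doublets in these values was not tested. Lymphoid-like cells reached at most 635 CPM of *Ccl2*, 216 of *Ccl7*, 62.8 of *Ccl11*, 570 of *Cxcl1*, 111 of *Cxcl2*, 23.6 of *Cxcl3*, and 28.5 of *Cxcl5*, and 70.5% of the highest *Ccl2* value was in 1 cell. At 5 dpi their level also differed by diet, with 24.0 and 193 CPM of *Ccl2* and 12.8 and 188 CPM of *Cxcl1* in control and hypothyroid muscle. The hypothyroid over control ratios above 2 in myogenic progenitor-like cells at that day, 3.77 for *Ccl2* and 3.12 for *Cxcl1*, stand beside 8.04 and 14.6 in lymphoid-like cells.

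The receptors described are *Ccr1* and *Ccr2*, and with them the scavenger receptors *Ackr1* and *Ackr3*. *Ccr2*, the receptor of CCL2 and CCL7, was highest in lymphoid-like cells, at 657 and 393 CPM at 5 dpi in control and hypothyroid muscle, and stood at 42.8 and 9.01 CPM in monocyte/macrophage-like cells. It was 210 and 121 CPM in the unnamed immune cluster. *Ccr1* was at 62.7 and 68.5 CPM in monocyte/macrophage-like cells and at 85.0 and 96.9 CPM in the unnamed cluster. The mRNA of the scavenger receptor *Ackr3* was found in FAP-like cells. In control and hypothyroid muscle it was at 346 and 748 CPM at 0 dpi and at 226 and 81.1 CPM at 5 dpi. At 14 dpi it was at 265 and 188 CPM. It thus passed 2-fold upward at 0 dpi and downward at 5 dpi. Whether its protein takes up any of the chemokines described here was not tested. *Ackr1*, which takes up chemokines on venules, was at 175 and 0 CPM in endothelial-like cells at 0 dpi and at 35.5 and 13.9 CPM at 14 dpi.

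Other chemokine genes were read in FAP-like cells from a list of 17. At 5 dpi 8 of 16 tested were 2-fold higher in hypothyroid cells and 3 lower, against 3.73% and 9.51% of all genes. *Cxcl10*, a ligand for T cells, rose from 285 to 677 CPM, *Cxcl9* from 52.0 to 199.8, *Ccl5* from 26.5 to 154, and *Ccl4* from 4.83 to 179 CPM, control against hypothyroid. *Cxcl14*, a homeostatic chemokine of fibroblasts, fell from 1791 to 669.5 CPM and *Cxcl13* from 130.0 to 15.6 CPM. Summed monocyte and macrophage markers in FAP-like cells were also higher in hypothyroid muscle at 5 dpi, at 324 against 54.8 CPM over 10 markers, none of them at 0, and were 7.30 to 76.2 CPM in the other 4 libraries. Their part in the values of *Ccl4* and *Ccl5* was not tested. Leaving out subcluster 8 (95 cells), which carried myeloid genes such as *Cd74* and *C1qa*, left 5 of the 7 chemokines 2-fold higher at 5 dpi.

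Genes that act above the chemokines are read beside the share of all genes that passed 2-fold at 5 dpi, 3.73% higher and 9.51% lower. Of 20 NF-κB factors and targets, none was 2-fold higher and 1 was lower at 5 dpi, and the inhibitor *Nfkbia*, itself induced by NF-κB, was at 625 and 566 CPM in control and hypothyroid FAP-like cells. *Ptgs2*, another target, was at 1821 and 2365 CPM. Among 19 inducers and their receptors 2 were higher and 1 lower at 5 dpi, *Il1a* and *Tnf* with few UMIs and *Il4ra* from 122 to 37.9 CPM. *Il6* was 3.07 times as high in hypothyroid cells at 0 dpi (271 and 831 CPM), and *Lif* 3.00 times at 14 dpi (84.7 and 254 CPM). Of 20 genes that tissue dissociation is known to raise, 2 were higher and 3 lower in hypothyroid cells at 5 dpi, with a median ratio of 0.748, 2 were higher and none lower at 0 dpi (1.30), and none higher and 2 lower at 14 dpi (0.635), beside all-gene shares of 3.73% and 9.51%, 3.98% and 4.12%, and 1.84% and 5.93% higher and lower. Between days it moved more, with 15 of 20 lower and 1 higher at 5 dpi than at 0 dpi in hypothyroid cells, a median of 0.399, against 2 lower and 1 higher in control cells, a median of 0.841. Of all genes 21.2% were lower and 18.8% higher in the hypothyroid and 12.2% and 21.1% in the control comparison. The part of dissociation in the levels at 0 dpi was not tested.

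The likeness of patterns was measured by Pearson's correlation of log2(CPM + 1) over 49 pools, each the cells of 1 class in 1 library (T, NK, and B cells apart, at least 20 cells), among 12338 genes. These pools share libraries, and the values are descriptions. *Ccl2* was most like *Ccl7* (0.873), *Ptgs2* (0.839), and *Mfap5* (0.822). *Ccl11* was most like *Fst* (0.833), *Arsi* (0.828), and *Col6a6* (0.804), and *Cxcl1* like *Serping1* (0.857), *Rarres2* (0.853), and *Fstl1* (0.849). *Cxcl2* went with *Cxcl3* (0.837), with the doubt on shared reads given above, and then with *Fnip2* (0.777). *Cxcl5* was most like *Postn* (0.793) and *Il1rl1* (0.787). Among the chemokines, *Ccl11* and *Cxcl2* were least alike, at 0.177.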

How the data were processed

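Tissue was dissociated with enzymes, and cells were run on the 10x Genomics 3′ V3 platform. The authors aligned reads in Partek Flow (Cell Ranger aligner, mm39, GENCODE M30), kept cells by UMI count, gene count, and mitochondrial share, and deposited log2(CPM + 1) per gene and cell. CPM was scaled back to UMIs through the smallest step of each cell, and 99.934% of 39334018 values above 0 came out whole within 0.01 or 0.001 of their size. Only the first run of columns in each file was used (11207 cells). The 9062 later columns, whose condition is not given, entered only the alternative with all columns. No further cell filter was applied and no doublets were removed.

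Members and gene lists were chosen with earlier results of these data known. Cells were clustered (Leiden, resolution 0.3, 20 principal components) without the chemokines and other listed genes, and clusters took a name from markers by a rule set after the clusters had been looked at. UMIs were summed per class and library. With 1 library per group no test was run: levels have exact Poisson, ratios exact binomial, and shares Clopper-Pearson 95% intervals. Named genes are the 7 members, genes of the lists, and the 3 most correlated genes for each member. The summing and ratio steps were tested on simulated counts. Alternatives were all columns, thinning to 1000 UMIs, other clusterings, the mean of log2 values, a total without the 20 top genes, equal weights, no UMI minimum, and leaving out the top 1% of cells, the myeloid-gene subcluster, or shared cells. Tools were Python 3.11.15 with matplotlib 3.10.9, scanpy 1.11.5, scikit-learn 1.9.0, scipy 1.17.1, igraph 0.11.9, numpy 2.4.6, leidenalg 0.10.2, and pandas 2.3.3.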

Additional observations from a re-analysis of the deposited data

Results flagged for a closer look

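Some ratios pointed in opposite directions in the 2 diets or on different days, with 1 library on each side, and these differences were not tested. From 0 to 5 dpi *Ccl2* in FAP-like cells was 0.397 times as high in control and 2.39 times in hypothyroid muscle, and *Ccl7* 0.497 and 1.40 times. From 5 to 14 dpi *Cxcl3* was 1.34 times as high in control and 0.558 times in hypothyroid muscle, and *Cxcl5* 0.807 and 1.31 times. The hypothyroid over control ratio changed side between days for 5 genes. At 0, 5, and 14 dpi it was 0.627, 3.77, and 1.80 for *Ccl2* and 0.925, 2.60, and 1.97 for *Ccl7*. It was 1.67, 0.759, and 1.07 for *Ccl11* and 0.831, 2.29, and 1.5 for *Cxcl2*. For *Cxcl5* it was 0.0214, 1.27, and 2.06, the first from 1 hypothyroid UMI.

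The 9062 later columns, used only in the alternatives with all columns, also held the chemokines. Over all cells of these columns *Ccl2* was at 7128 CPM, *Ccl7* at 3071, *Ccl11* at 276, *Cxcl1* at 5700.5, *Cxcl2* at 2203, *Cxcl3* at 478, and *Cxcl5* at 927 CPM. Of these columns 1680 repeat cells of the first runs of other files. In later columns labelled 5 dpi, FAP-like cells had 9726 CPM of *Ccl2* in control and 4513 CPM in hypothyroid muscle, the reverse of the first runs. *Ccl7*, *Cxcl1*, *Cxcl2*, *Cxcl3*, and *Cxcl5* were also lower there under the hypothyroid label, while *Ccl11* was higher (404 and 432 CPM).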

How the results depend on the processing

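The count of chemokines 2-fold higher at 5 dpi was 5, and was 5 again with other clusterings, thinning, the mean of log2 values, no UMI minimum, or without the top 1% of cells or the shared cells. With all columns 1 was higher, and with equal weights of subclusters 3. At 14 dpi the number higher, 1, became 0 with all columns or equal weights, 3 with thinning, 5 with the mean of log2 values, and 2 without the top 1% of cells or without shared cells. At 0 dpi the 1 higher became 0 with all columns, with the mean of log2 values, and without the top 1%, and the 1 lower became 4, 2, and 0 there and 0 with thinning. Without the top 1% of cells *Cxcl3* and *Cxcl5* gave no ratio at 0 dpi. *Cxcl3* turned to 0.558 at 0 dpi with all columns and to 0.672 at 5 dpi in subcluster 4 alone, and *Cxcl5* to 0.108 at 14 dpi in subcluster 7 alone. Among ratios under 2-fold, *Cxcl1* at 0 dpi turned from 1.22 to 0.637 with all columns. *Ccl11* turned from 0.759 to 1.41 at 5 dpi with thinning and to 1.15 with the mean of log2 values. At 14 dpi it turned from 1.07 to 0.822 with all columns, 0.935 with the mean of log2 values, 0.986 without the top 1%, and 0.993 with equal weights. Without the shared cells it was 1.30 at 14 dpi. At 5 dpi *Ccl2*, *Ccl7*, *Cxcl1*, *Cxcl2*, and *Cxcl3* were at 1.68, 1.31, 1.31, 1.42, and 2.37 with all columns, and *Ccl2*, *Ccl7*, *Cxcl1*, and *Cxcl2* at 8.80, 3.05, 8.0, and 3.57 with the mean of log2 values. At 0 dpi the values with all columns mix in cells labelled hypothyroid at 14 dpi and control at 5 dpi, so they cannot check the uninjured ratios. The causes were not tested.

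The FAP-like share of the UMIs of *Ccl2*, *Ccl7*, *Ccl11*, *Cxcl1*, *Cxcl2*, *Cxcl3*, and *Cxcl5* was, in that order, 95.2%, 95.1%, 95.5%, 94.7%, 81.6%, 76.1%, and 96.0% with all columns. It was 93.3%, 92.0%, 94.7%, 92.5%, 68.4%, 62.7%, and 95.1% with thinning, and 94.8%, 94.5%, 93.5%, 93.9%, 80.1%, 77.7%, and 95.9% with all genes kept for clustering. At resolution 0.6 it was 94.0%, 93.2%, 91.9%, 92.8%, 79.5%, 77.6%, and 95%, and with 30 components 95.5%, 95%, 94.2%, 94.6%, 80.4%, 78.2%, and 96.5%. Without the myeloid-gene subcluster it was 94.3%, 93.9%, 93.2%, 93.4%, 79.3%, 76.8%, and 95.1%, and without shared cells 94.4%, 93.7%, 92.7%, 93.0%, 79.7%, 79.4%, and 96.1%. The last 2 alternatives, the equal weights, and the subclusters alone were chosen after seeing the data. No paired analysis was possible because each diet and day was 1 library. The ratios of *Cxcl3* and *Cxcl5* at 0 dpi were limited by the few cells that held a UMI, and that of *Cxcl5* also by the 1 hypothyroid UMI.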

Other observations

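The cells that also stand in another table were closer to the remaining cells of their label for some chemokines than for others. In control FAP-like cells at 5 dpi, *Ccl2* was at 4401 CPM in 84 shared and 3893 CPM in 336 other cells, *Cxcl1* at 3239.5 and 3266 CPM, and *Ccl11* at 231 and 166 CPM. In hypothyroid FAP-like cells at 14 dpi, *Ccl2* was at 16692 CPM in 600 shared and 19150 CPM in 261 other cells, *Cxcl3* at 877 and 1180.2 CPM, and *Ccl11* at 358 and 480 CPM.

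Among thinned FAP-like cells the neutrophil ligands also stood together. At 5 dpi 45.8% of control and 52.2% of hypothyroid cells with a *Cxcl1* UMI had *Cxcl2*, against 2.73% and 5.67% of cells without. *Cxcl5* was in 39.6% and 37.9% of the cells with *Cxcl1* and in 8.18% and 1.77% of those without. Cells with more UMIs of all genes before thinning were not matched in these shares.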
